A study of Rattus norvegicus with 3 samples.

Results

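Transcript levels of 5 genes that define the identity of the insulin-producing beta cell were followed in 3 RNA sequencing libraries of INS-1 832/13 cells, a rat insulinoma line that still secretes insulin in response to glucose. The genes were taken by their gene IDs: Iapp (ENSRNOG00000012417), Pdx1 (ENSRNOG00000046458), Slc2a2 (ENSRNOG00000011875), Glp1r (ENSRNOG00000001152) and Neurod1 (ENSRNOG00000005609). They make up 5 of the 34340 gene models listed for each library, and all 5 passed the minimum FPKM of 5 in all 3 libraries. The symbols were given together with the IDs. The choice of these genes was made with earlier results of these data known, so their counts below describe the genes and are not independent of the data. The files carry IDs without symbols and the RefSeq table used here gives no Ensembl IDs, so the pairing was neither checked nor contradicted.

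The cells overexpressed NIK (the NF-κB-inducing kinase, upstream of the non-canonical branch of NF-κB signalling), NIK(KA), or β-Gal, a bacterial enzyme often used as a control protein. The labels do not say what NIK(KA) is, how the proteins were introduced or for how long. In published work the name NIK(KA) stands for a form in which a lysine of the kinase domain is changed to alanine and which lacks kinase activity. All 3 groups share the same cell line and no other treatment is given. With 1 library in each group the spread between cultures is unknown, so differences are described without p-values and are differences between libraries. Counted reads numbered 15095979 in NIK, 14349721 in NIK(KA) and 17457498 in β-Gal. The level of the NIK gene itself, which would check the labels, and the other defining markers of the beta cell and of other islet cells were not looked up, since no other ID is paired with a symbol.

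Beta cells keep a narrow programme of genes that couples glucose uptake to the release of insulin. Homeodomain factors such as Pdx1 and basic helix-loop-helix factors such as Neurod1 bind the control regions of insulin and of other islet genes and maintain that programme. Slc2a2 encodes GLUT2, the glucose transporter through which glucose enters the rodent beta cell. Glp1r encodes the receptor for the gut hormone GLP-1, which raises cyclic AMP and strengthens insulin release. Iapp encodes islet amyloid polypeptide (amylin), a peptide hormone stored and released together with insulin.

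Pdx1 recognises sites with a TAAT core and Neurod1 recognises E-boxes, so the upstream DNA of the genes themselves is of interest. Against β-Gal, Iapp had the largest difference of the 5 genes in both NIK and NIK(KA), and Neurod1 was lower in both. Slc2a2 was not lower than β-Gal in NIK but was 1.92-fold lower in NIK(KA). The 250 bases before the RefSeq start are shown for Iapp, Neurod1 and Slc2a2. They come from RefSeq on build GRCr8 and are written 5′ to 3′ on the strand of the gene, with capitals marking E-boxes (CANNTG) and TAAT cores, a core on the other strand being read as ATTA. The Iapp window is chr4:176967847-176968096 on the plus strand, the Neurod1 window is chr3:84770455-84770704 on the minus strand, and the Slc2a2 window is chr2:113540120-113540369 on the plus strand.
Iapp: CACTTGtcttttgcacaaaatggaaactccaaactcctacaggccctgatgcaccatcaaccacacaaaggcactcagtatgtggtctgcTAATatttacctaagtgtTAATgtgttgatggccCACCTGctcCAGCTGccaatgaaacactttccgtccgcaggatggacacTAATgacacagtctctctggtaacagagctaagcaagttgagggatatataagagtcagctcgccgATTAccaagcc
Neurod1: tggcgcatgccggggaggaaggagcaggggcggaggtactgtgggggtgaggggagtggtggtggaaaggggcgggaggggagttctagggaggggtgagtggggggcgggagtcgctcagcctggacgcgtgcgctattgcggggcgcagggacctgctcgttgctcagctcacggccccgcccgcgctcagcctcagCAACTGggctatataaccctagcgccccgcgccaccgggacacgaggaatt
Slc2a2: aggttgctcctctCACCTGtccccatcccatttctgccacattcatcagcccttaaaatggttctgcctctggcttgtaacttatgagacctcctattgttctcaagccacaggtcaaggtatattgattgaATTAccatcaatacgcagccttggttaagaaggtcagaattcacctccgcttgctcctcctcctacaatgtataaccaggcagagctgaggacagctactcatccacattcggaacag

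The Iapp window held 3 E-boxes and 4 TAAT cores. A pair of its E-boxes lay close together, from -126 to -121 and from -117 to -112, where -1 is the last base before the start. The Neurod1 window held 1 E-box, from -51 to -46, and 0 TAAT cores. In the Slc2a2 window there were 1 E-box, from -237 to -232, and 1 TAAT core. The Pdx1 window held 3 E-boxes and the Glp1r window 1, and neither held a TAAT core. All 5 windows thus held an E-box, compared with 65.5% of 33469 promoters of the same length, and 2 of the 5 (Iapp and Slc2a2) held a TAAT core, compared with 57.0%. GGG and CC separated by 5 bases of any kind, a loose form of the κB motif of NF-κB proteins, was found on either strand in 3 of the 5 windows (Pdx1, Neurod1 and Glp1r), compared with 42.3% of all promoters. The Glp1r matches, 5 in number, overlap in a single stretch. No match to one of these motifs overlapped a match to another. Base composition differed between the windows: G and C made up 75.6% of the Glp1r window, 69.2% of that of Neurod1 and 59.6% of that of Pdx1, but 46.8% for Iapp and 47.2% for Slc2a2, with a median of 51.2% over all promoters. The motifs were chosen after these sequences were seen, so the counts describe the windows and are no test against the promoters. A match describes the letters only, and binding was not measured here.

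**Figure D1:**
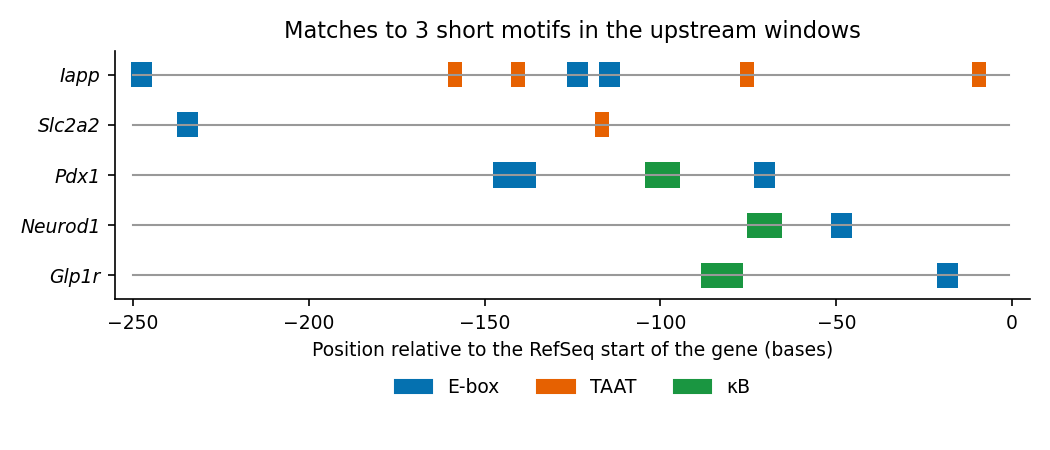
Matches to 3 short motifs (E-box, TAAT and κB) in the 250 bases before the RefSeq start of each gene. The horizontal axis is the distance from the start in bases, and every window holds at least 1 E-box, while the κB matches fall in Pdx1, Neurod1 and Glp1r.

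Levels are given as FPKM, reads per 1000 bases of gene model and per 1000000 reads of the library, which allows genes of different length to be compared. The interval beside a level is the exact 95% Poisson interval of its reads and covers counting error only. Reads behind a value numbered between 927 (Glp1r in NIK) and 19025 (Iapp in β-Gal), and the gene models were between 466 (Iapp) and 2623 bases (Neurod1) long, all given as lower limits. In bulk RNA, fewer cells that express a gene and less of its RNA per cell cannot be told apart. In every library the order of the levels was the same, with Iapp first, followed by Slc2a2, Pdx1, Neurod1 and Glp1r.

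Iapp had an FPKM of 913 in NIK (891 to 936), 1186 in NIK(KA) (1160.2 to 1213) and 2339 in β-Gal (2305 to 2372). The 3 intervals did not overlap, and β-Gal stood far above the other libraries. By level, Iapp ranked 69th of all gene models in NIK, 52nd in NIK(KA) and 9th in β-Gal. Its reads made up at least 0.0426% of all counted reads in NIK, 0.0553% in NIK(KA) and 0.109% in β-Gal. These shares are lower limits because the reads are.

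Slc2a2, the glucose transporter gene, had an FPKM of 293 in NIK (287 to 299), 138 in NIK(KA) (134 to 143) and 265 in β-Gal (259.9 to 270.5). Here NIK and β-Gal lay close together and NIK(KA) was the low library. Its rank among all gene models was 281st in NIK, 724th in NIK(KA) and 311th in β-Gal.

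Of the 2 transcription factor genes, Pdx1 had an FPKM of 92.7 in NIK (88.6 to 96.9), 77.1 in NIK(KA) (73.3 to 81.1) and 138 in β-Gal (133 to 143). Pdx1 was thus highest in β-Gal and lowest in NIK(KA). Neurod1 had an FPKM of 29.1 in NIK (27.4 to 30.8), 43.3 in NIK(KA) (41.2 to 45.4) and 65.1 in β-Gal (62.8 to 67.5). For this gene the low library was NIK.

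Glp1r, the incretin receptor gene, had an FPKM of 27.5 in NIK (25.8 to 29.4), 36.2 in NIK(KA) (34.1 to 38.3) and 57.5 in β-Gal (55.2 to 60.0). The libraries stood in the same order as for Neurod1. In NIK the levels of Neurod1 and Glp1r, neighbours in the order of levels, did not differ beyond counting error, at a ratio of 1.06 (0.968 to 1.15). In NIK(KA) their ratio was 1.20 (1.11 to 1.29) and in β-Gal it was 1.13 (1.07 to 1.20). All other pairs of genes differed beyond counting error in each library.

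**Figure D2:**
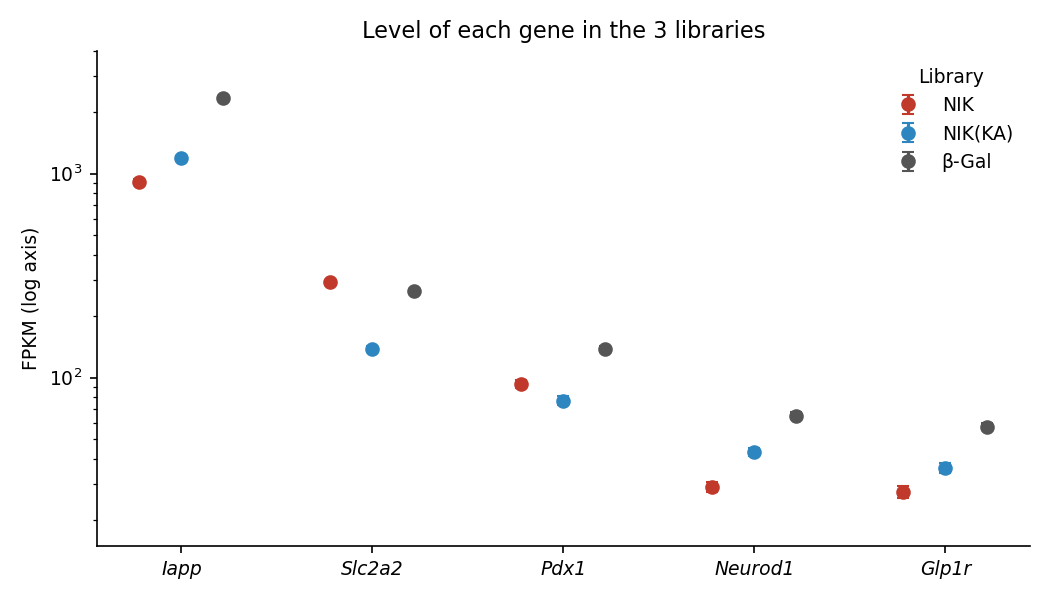
FPKM of each gene (log axis) in the NIK, NIK(KA) and β-Gal libraries, 1 point per library, with exact 95% Poisson intervals of the reads, most of which are smaller than the point. β-Gal is the highest library for every gene except Slc2a2, which had 293 in NIK and 265 in β-Gal.

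The first comparison set NIK against β-Gal and asked how the genes stood when NIK was overexpressed. Iapp, Neurod1 and Glp1r were at least 2-fold lower in NIK, Pdx1 was lower by less than that, and Slc2a2 was slightly higher. Differences are log2 ratios of FPKM + 1, a scale that holds down low values, and folds are ratios of FPKM itself with an exact 95% Clopper-Pearson interval that covers counting error only. Iapp in NIK was 2.56-fold lower (2.49 to 2.63), with a log2 ratio of -1.36. Neurod1 was 2.24-fold lower (2.09 to 2.40), with a log2 ratio of -1.14. For Glp1r the FPKM in NIK was 2.09-fold lower (1.93 to 2.26), with a log2 ratio of -1.04. That interval reaches below 2, so Glp1r lay on the edge of the 2-fold rule.

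Pdx1 was 1.49-fold lower in NIK (1.41 to 1.57), with a log2 ratio of -0.57, just short of a 1.5-fold difference. Slc2a2 was 1.104-fold higher in NIK (1.07 to 1.14), with a log2 ratio of 0.14. Its interval left out 1, although the size was small. In all, 3 of the 5 genes were at least 2-fold lower, compared with 4.10% of the 11171 gene models that reached an FPKM of 5 in at least 1 library, and 0 were at least 2-fold higher, compared with 6.73%. At 1.5-fold the counts were also 3 lower, compared with 11.5% of the gene models, and 0 higher, compared with 14.3%. The median log2 ratio was -1.04 over the 5 genes and 0.02 over all gene models compared. Iapp stood low among all of these: 213 gene models (1.91%) had a lower log2 ratio than Iapp, compared with 346 (3.10%) for Neurod1, 429 (3.84%) for Glp1r and 1341 (12.0%) for Pdx1. Slc2a2 stood near the middle, with 38.2% of the gene models above it. Among the 6168 gene models that reached an FPKM of 20, the shares below were much the same, at 1.82% for Iapp, 2.63% for Neurod1, 3.27% for Glp1r and 11.3% for Pdx1.

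The second comparison set NIK(KA) against the same β-Gal library. All 5 genes were lower in NIK(KA), each by less than 2-fold. Iapp was 1.97-fold lower (1.92 to 2.02), with a log2 ratio of -0.98, the value nearest to the 2-fold line. Slc2a2 was 1.92-fold lower (1.85 to 1.99), with a log2 ratio of -0.93. Pdx1 followed at 1.79-fold lower (1.68 to 1.90), with a log2 ratio of -0.83. Glp1r was 1.59-fold lower (1.48 to 1.71) and Neurod1 1.51-fold lower (1.42 to 1.60), with log2 ratios of -0.66 and -0.58.

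None of the 5 genes (0 lower and 0 higher) passed the 2-fold rule in this comparison, compared with 1.95% of all gene models lower and 2.97% higher. At 1.5-fold, 4 of the 5 were lower, compared with 7.92% of the gene models, and 0 were higher, compared with 11.5%. Neurod1 was the one left out, because its log2 ratio of -0.58 fell just short on the scale with 1 added. The median log2 ratio was -0.83 over the 5 genes and 0.05 over all gene models compared. The share of gene models with a lower log2 ratio was 2.09% for Iapp, 2.43% for Slc2a2, 3.43% for Pdx1, 6.44% for Glp1r and 8.07% for Neurod1. When the libraries were rescaled so that their median log2 deviation from the 3-library mean was 0, Iapp and Slc2a2 passed the 2-fold line, at -1.06 and -1.01. Both comparisons use the same single β-Gal library, so what is particular to that library cannot be told apart from what NIK and NIK(KA) have in common.

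**Figure D3:**
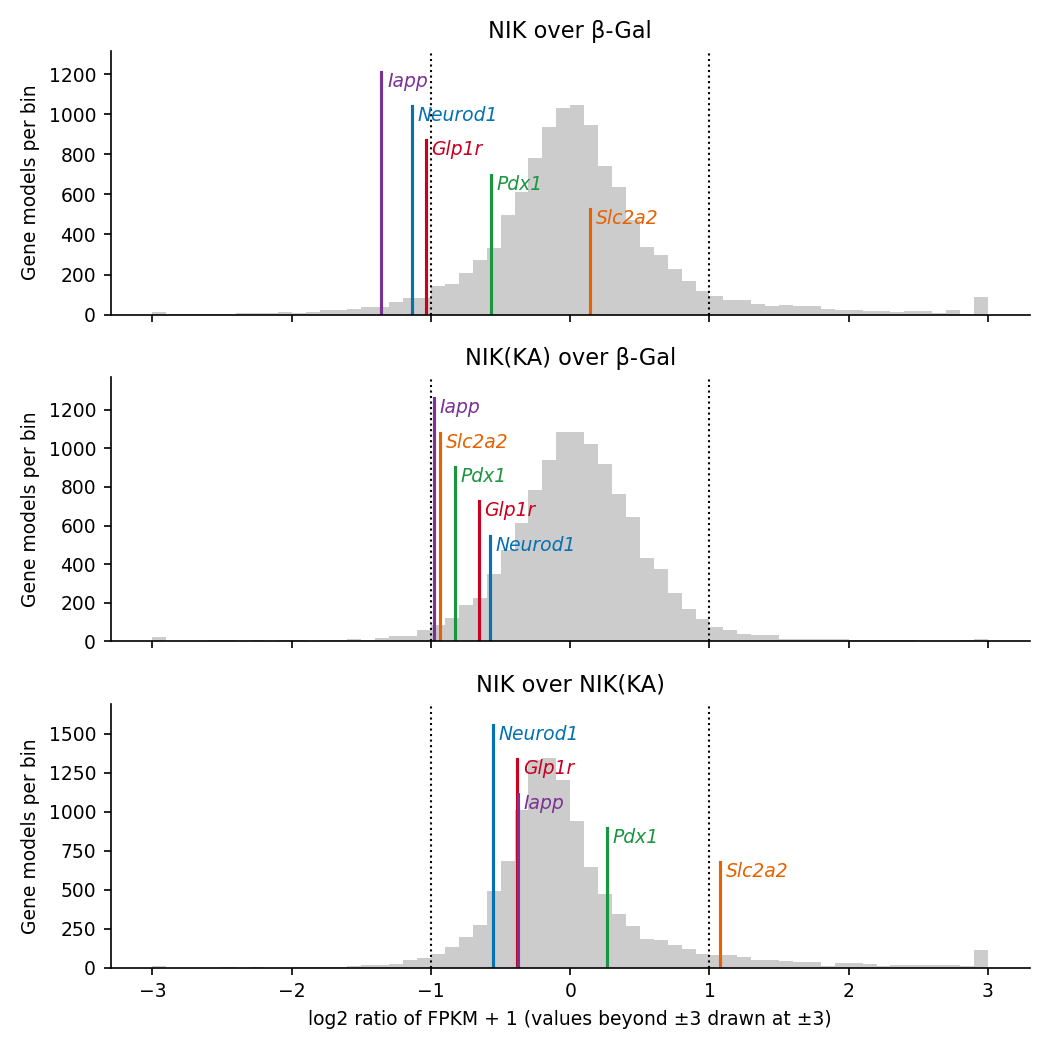
Histograms of the log2 ratio of FPKM + 1 over 11171 gene models for NIK over β-Gal, NIK(KA) over β-Gal and NIK over NIK(KA), with a coloured line at each of the 5 genes (line heights only keep the names apart) and dotted lines at 2-fold. Iapp, Neurod1 and Glp1r lie beyond the lower line in the upper panel, all 5 genes lie left of 0 in the middle panel, and Slc2a2 lies beyond the upper line in the lower panel.

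The third comparison set the library labelled NIK against the library labelled NIK(KA), without using the β-Gal library. Slc2a2 was the gene that differed most, at 2.12-fold higher in NIK (2.04 to 2.20) and a log2 ratio of 1.08. It was the single one of the 5 genes at least 2-fold higher, compared with 6.97% of all gene models, and 0 were at least 2-fold lower, compared with 2.11%. At 1.5-fold the counts were the same, 1 higher and 0 lower, compared with 12.0% and 8.85% of the gene models. Pdx1 was 1.20-fold higher in NIK (1.12 to 1.29), with a log2 ratio of 0.26. The other 3 genes were lower in NIK: Neurod1 by 1.49-fold (1.38 to 1.60), Glp1r by 1.31-fold (1.20 to 1.43) and Iapp by 1.30-fold (1.26 to 1.34). Their log2 ratios were -0.56, -0.38 and -0.38.

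The differences of Pdx1, Neurod1, Glp1r and Iapp stood less far out than those against β-Gal at the minimum FPKM of 5. The median log2 ratio over all gene models compared was -0.12, and 62.6% of the gene models were lower in NIK than in NIK(KA). A lower log2 ratio than that of Neurod1 was found for 10.1% of the gene models, and the shares for Glp1r and Iapp were 20.4% and 20.8%. Among the gene models that reached an FPKM of 20, these shares were 7.02%, 16.3% and 16.7%. At that minimum Neurod1 stood further out than in NIK(KA) against β-Gal, where its share was 8.40%. Slc2a2 was passed on the higher side by 715 gene models (6.40%) and Pdx1 by 2283 (20.4%).

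Ratios between genes within 1 library do not depend on how the libraries were scaled to each other, so they were used to compare the genes directly. There were 10 pairs of genes. Between NIK and β-Gal the ratio differed beyond counting error (95% interval from the normal approximation on the log scale) for 9 of the 10 pairs, the exception being Neurod1 to Glp1r. Iapp stood 3.12-fold above Slc2a2 in NIK (3.02 to 3.22), against 8.82-fold in β-Gal (8.61 to 9.04), a 2.83-fold smaller gap (2.72 to 2.94). Slc2a2 stood 10.1-fold above Neurod1 in NIK (9.47 to 10.7), against 4.07-fold in β-Gal (3.91 to 4.24). Slc2a2 likewise stood 3.16-fold above Pdx1 in NIK (3.01 to 3.32), against 1.92-fold in β-Gal (1.85 to 2.001). Relative to Slc2a2, the other 4 genes were thus lower in NIK than in β-Gal.

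The 2 transcription factor genes also stood further apart in NIK. Pdx1 stood 3.19-fold above Neurod1 in NIK (2.96 to 3.43), against 2.12-fold in β-Gal (2.01 to 2.23), so that the ratio was 1.51 times as high in NIK (1.38 to 1.64). In NIK(KA) Pdx1 stood 1.78-fold above Neurod1 (1.66 to 1.91), 0.842 times the ratio in β-Gal (0.773 to 0.918). Set against β-Gal, the ratio was thus larger in NIK but smaller in NIK(KA).

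Between NIK(KA) and β-Gal the pairs kept their proportions more closely. The 10 ratios of ratios lay between 0.764 (Iapp to Neurod1) and 1.06 (Neurod1 to Glp1r), whereas between NIK and β-Gal they lay between 0.354 (Iapp to Slc2a2) and 2.47 (Slc2a2 to Neurod1). Iapp stood 8.58-fold above Slc2a2 in NIK(KA) (8.26 to 8.91), 0.973 times the value in β-Gal, with an interval of 0.930 to 1.02 that holds 1. The interval also held 1 for Slc2a2 to Pdx1 and for Neurod1 to Glp1r, and the other 7 pairs differed beyond counting error. Between NIK and NIK(KA) the ratio of Slc2a2 to Neurod1 differed most, at 3.15-fold higher in NIK (2.90 to 3.42). The ratio of Iapp to Glp1r differed least, at 1.01 (0.922 to 1.11).

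**Figure D4:**
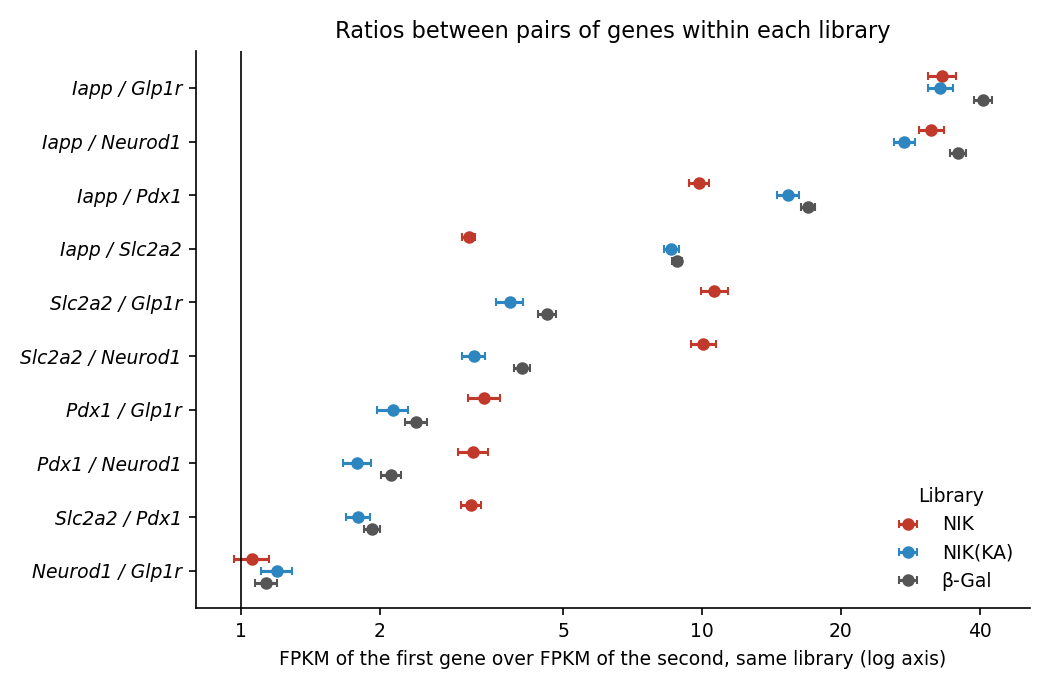
FPKM of one gene over FPKM of another in the same library (log axis) for all 10 pairs of genes, with the NIK, NIK(KA) and β-Gal libraries above each other and exact 95% intervals of the reads. The NIK point stands away from the other libraries in each pair that holds Slc2a2 or Pdx1. Iapp to Slc2a2 is at 3.12 in NIK, 8.58 in NIK(KA) and 8.82 in β-Gal. Pdx1 to Neurod1 is at 3.19 in NIK, 1.78 in NIK(KA) and 2.12 in β-Gal.

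Summed over the 5 genes, the FPKM was 1356 in NIK, 1481 in NIK(KA) and 2864 in β-Gal. Iapp made up 67.4% of that sum in NIK, 80.1% in NIK(KA) and 81.6% in β-Gal.

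The genes fell into 3 patterns over the libraries. Iapp, Neurod1 and Glp1r were lowest in NIK, intermediate in NIK(KA) and highest in β-Gal, an order shown by 22.2% of the gene models compared. Pdx1 was lowest in NIK(KA), intermediate in NIK and highest in β-Gal, as were 9.69% of the gene models. Slc2a2 was lowest in NIK(KA), intermediate in β-Gal and highest in NIK, as were 13.5%. On a plane of both log2 ratios to β-Gal, which rests on 3 libraries, Neurod1 and Glp1r were the most alike of the 5 genes. They lay at a distance of 0.13, and Iapp and Slc2a2, the least alike, at 1.499. Many other gene models lay closer: 50 were nearer to Neurod1 than Glp1r was, and 51 were nearer to Glp1r than Neurod1 was. Within a distance of 0.1 there were 34 other gene models for Glp1r, 31 for Neurod1 and 27 for Pdx1, but 5 each for Iapp and Slc2a2. These neighbours are counted without names, since their IDs are not paired with symbols.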

How the data were processed

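The deposited files hold 1 FPKM value per gene model and library, computed by the authors from reads. TopHat2, HTSeq 0.6.1 and the mouse build GRCm38 are named, per the submitters' processing notes. Yet 32883 of the 34340 rows carry rat Ensembl IDs, so the build is not settled. The other 1457 rows carry other IDs and were kept among the gene models. Library preparation and strand are not stated in the sources used here, so reads of overlapping or antisense genes and of near-identical copies may be included.

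Library totals and reads were recovered from the smallest steps between values: 107 gene models with the same low number of reads everywhere fixed the totals, and 22026 of 22026 gene models above 0 came out as whole reads (relative tolerance 1e-06). These are the lowest whole numbers and thus lower limits, and reads are not independent molecules, so intervals cover counting error only.

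A gene model was compared if its FPKM reached 5 in at least 1 library, with a pseudocount of 1. Alternatives were other pseudocounts, minimum values, thresholds and scalings. The 5 genes, the lists and the motifs were chosen with earlier results of these data known, the motifs after the upstream sequences were seen. Named genes are the 5 genes and, where a symbol is paired, the gene models nearest to them by pattern. The 5 other gene lists (77 symbols) and the cell type markers were not run, since 0 IDs matched a symbol among the 47357 genes of the RefSeq table. Python 3.11.15 and SciPy 1.17.1 were used, and the code was tested on simulated data. The simulated reads held counting error only, without spread between cultures. Changes set in them were at least 3-fold, so smaller differences such as those reported here were not covered.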

Additional observations from a re-analysis of the deposited data

Results flagged for a closer look

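Slc2a2 stood on opposite sides of the same β-Gal library, with a log2 ratio of 0.14 in NIK and of -0.93 in NIK(KA). With 1 library per group the difference between these ratios was not tested. It equals the log2 ratio of NIK to NIK(KA), 1.08, which does not use the β-Gal library.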

How the results depend on the processing

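Of 78 alternative counts of genes past the fold rule, 74 stayed within 1.5 times the reported count and 4 moved. Many of the 78 could not move. The other minimum values, at most 20, lay below every FPKM of the 5 genes (lowest 27.5, Glp1r in NIK). A threshold of 3-fold could not change a count that was 0 at 2-fold. TPM and equal sums are the same scaling apart from the weight of the pseudocount. The share that stayed is therefore no measure of robustness. With a threshold of 3-fold the number of genes lower in NIK than in β-Gal became 0 and the number higher in NIK than in NIK(KA) became 0. In NIK(KA) against β-Gal the number lower became 4 at 1.5-fold, and 2 with medians set to 0. A pseudocount of 5 took Glp1r to -0.94 in NIK against β-Gal, short of 2-fold. Of 120 alternative log2 ratios of single genes, 116 moved by no more than the half-width of the counting interval, 0 changed sign and 4 moved further, all with medians set to 0. These were Iapp and Slc2a2 in NIK(KA) against β-Gal, at -1.06 and -1.01, and in NIK against NIK(KA), at -0.29 and 1.17. The setting without a pseudocount was added after the values were seen and left all counts as reported. No paired analysis was possible because each group holds 1 library and no test was made. Differences between cultures, preparations or sequencing runs cannot be told apart from the groups.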
